A study of Homo sapiens with 6 samples.

Results

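The transcripts of 36 p53 target genes were measured by RNA-Seq in etoposide-treated U2OS cells. The genes were taken from a list of symbols for known p53 targets, and each symbol was paired with 1 Ensembl identifier of the count files, so that all 36 were found among 67140 genes listed. U2OS is a human osteosarcoma cell line that keeps wild-type p53, and the labels give its genotype as WT. The cells were treated with 100 μM etoposide for 4 h, and 2 libraries were analysed. The study also holds 2 libraries of untreated cells and 2 of cells that received adriamycin (1.5 μg/ml over 4 h). Of these 4 libraries, between 220 and 292 genes from the top of the gene list were analysed here, and 0 of the 36 genes are among them. The values below therefore describe how much of each transcript was present after etoposide, and no change from untreated cells was measured. The labels do not say that the 2 libraries came from separate cultures, so the SD between them may be technical.

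p53 is a transcription factor that is kept scarce in unstressed cells because MDM2 marks it for degradation. Etoposide traps topoisomerase II on cleaved DNA, the resulting double-strand breaks activate the kinases ATM and CHEK2, and p53 then accumulates and binds its response elements. A full response element is made of a pair of half-sites placed next to each other, and each half-site holds a C and a G at fixed core positions. The genes that p53 switches on hold the cell cycle, repair DNA, adjust metabolism, promote survival or death, and include MDM2 itself, which closes a feedback loop.

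Matches to the p53 full site were searched in GRCh38 within 2500 bases on either side of the start of the canonical transcript. The site was read as 2 half-sites of 10 bases with no spacer, with the core C and G intact in both, and with at most 2 mismatches at the other positions. The motif reads the same on both strands, so 1 scan covers both. Of the 36 genes, 12 held a match (33.3%), against 3.77% of 19879 protein-coding genes and 3.71% of the 13702 among them that were detected in the libraries. The list consists of known p53 targets, so this share describes the list and is not evidence about the etoposide libraries. The matched letters are shown so that the sites can be compared between genes, with the 4-base core CNNG of each half-site in capitals, read on the strand of the gene. The RRM2B match is not shown.
PLK2 (chr5:58462274-58462293, minus strand): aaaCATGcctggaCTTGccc
ZMAT3 (chr3:179070188-179070207, minus strand): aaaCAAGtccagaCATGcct
GADD45A (chr1:67686775-67686794, plus strand): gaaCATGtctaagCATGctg
DDB2 (chr11:47214969-47214988, plus strand): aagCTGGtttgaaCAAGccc
CCNG1 (chr5:163437926-163437945, plus strand): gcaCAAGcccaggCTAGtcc
CCNG1, downstream match (chr5:163439946-163439965, plus strand): gacCTAGtcaagaCTTGctt
CDKN1A (chr6:36676449-36676468, plus strand): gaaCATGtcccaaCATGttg
MDM2 (chr12:68808923-68808942, plus strand): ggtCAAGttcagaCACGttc
BTG2 (chr1:203303642-203303661, plus strand): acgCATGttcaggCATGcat
GDF15 (chr19:18385308-18385327, plus strand): catCTTGcccagaCTTGtct
AEN (chr15:88621306-88621325, plus strand): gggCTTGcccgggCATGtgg
SPATA18 (chr4:52051957-52051976, plus strand): ggaCATGtgtgtaCATGccc

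PLK2 and ZMAT3 carried matches with 0 mismatches, which only 0.0654% of protein-coding genes did. GADD45A, DDB2, CCNG1 and RRM2B carried 1 mismatch, and at most 1 mismatch was found near 6 of the 36 genes and near 0.518% of protein-coding genes. The other 6 genes, CDKN1A, MDM2, BTG2, GDF15, AEN and SPATA18, had 2 mismatches. The CDKN1A match was centred 2256 bases upstream of the canonical start and lay across the outermost annotated start of the gene, so part of it falls in an annotated first exon. The BTG2 and PLK2 matches lay upstream of the gene, at 1868 and 2198 bases from the start, and the AEN match lay upstream at 24 bases. The DDB2 match lay across the canonical start, with its centre 4 bases downstream and at least part of it in an exon. The remaining matches were in introns. They included those of MDM2 at 756 bases, GADD45A at 1584 bases, ZMAT3 at 1612 bases and RRM2B at 2112 bases downstream, and CCNG1 held a further one, with 2 mismatches, at 2360 bases. The GDF15 match was 840 bases upstream of the canonical start, inside an intron of a longer annotated transcript. The plot of match positions shows that they were spread over the whole window.

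**Figure D1:**
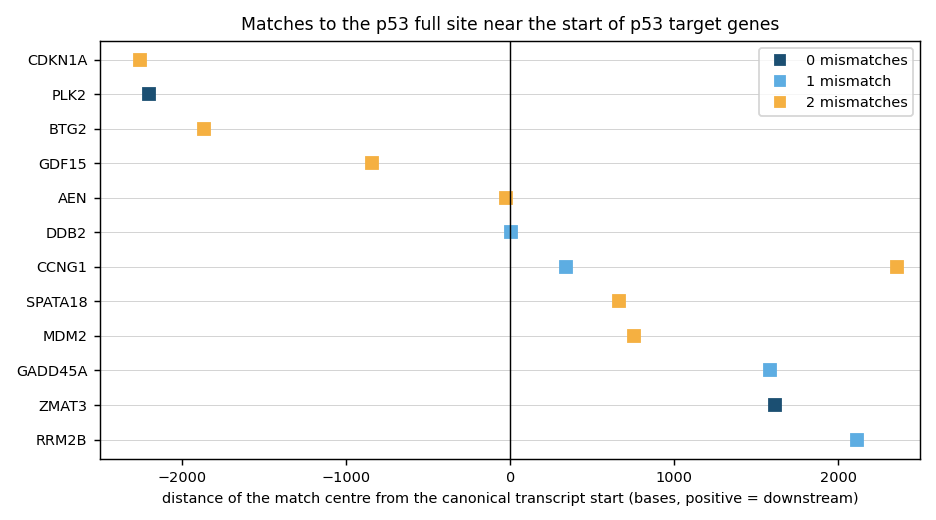
Distance in bases from the centre of each p53 full-site match to the canonical transcript start (x axis, positive values downstream) for the 12 genes with a match (y axis). Each square is 1 of 13 matches, coloured by its number of mismatches, and the matches lie between 2256 bases upstream and 2360 bases downstream.

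Levels are given as counts per library and as transcripts per 1000000 (TPM), which divide the counts by the length of all annotated exons of a gene, so that levels can be compared between genes. In bulk libraries, fewer expressing cells and less RNA per cell cannot be told apart. The libraries held 21450766 and 14244235 counts. A gene was called detected when both libraries held at least 10 counts, which was so for 25.6% of all genes listed and for 68.9% of 19892 protein-coding genes. Of the 36 p53 target genes, 35 were detected. Their median level was 47.4 TPM, where the median of 13715 detected protein-coding genes was 16.5 TPM. Above that median were 29 of the 36 genes, 19 were above 75% of detected protein-coding genes and 10 above 90%. Together they took 0.355% and 0.353% of all counts of the libraries. CDKN1A and IER3 alone made up 19.5% and 17.6% of the summed TPM of the group. From the highest to the lowest detected gene, CDKN1A to OSGIN1, the TPM differed 62.0-fold.

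**Figure D2:**
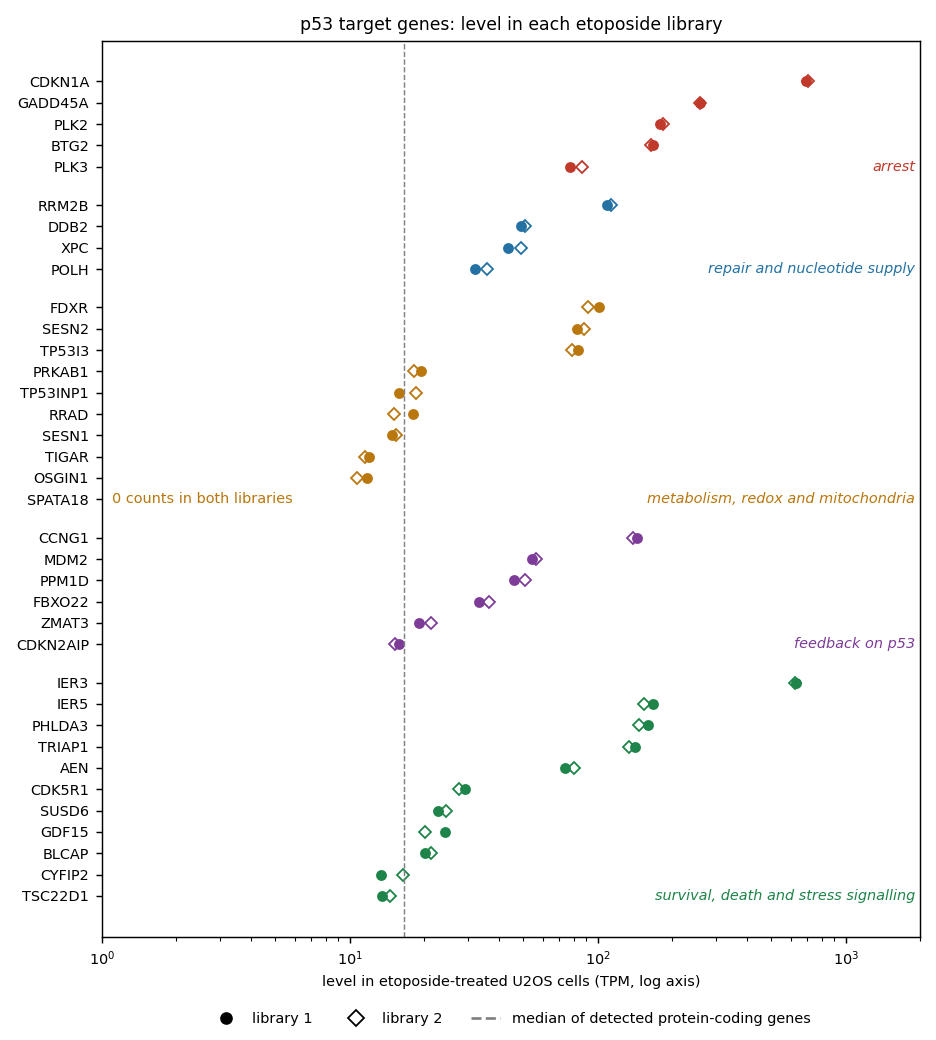
Level of each p53 target gene in TPM (x axis, log scale) in etoposide library 1 (filled circles) and library 2 (open diamonds), grouped by main function, with the median of detected protein-coding genes as a dashed line at 16.5 TPM. The arrest genes lie between 77.3 and 703 TPM, all right of the line, and SPATA18 had 0 counts in both libraries.

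The genes that hold the cell cycle stood highest, with a median of 181 TPM over 5 genes. CDKN1A (ENSG00000124762, chr6:36676460-36687337, plus strand) encodes p21, an inhibitor of cyclin-dependent kinases. Library 1 held 12931 counts of it and library 2 held 8535. These are 692 and 703 TPM, with a mean of 697 ± 7.13 TPM (SD, n = 2), higher than 99.1% of detected protein-coding genes. GADD45A (ENSG00000116717, chr1:67685201-67688334, plus strand), a stress sensor that binds CDK1 and PCNA, had 3088 and 2012 counts, or 257 and 258 TPM. PLK2 (ENSG00000145632, chr5:58453982-58460139, minus strand), a polo-like kinase, had 5166 and 3443 counts, or 178 and 183 TPM. BTG2 (ENSG00000159388, chr1:203305491-203309602, plus strand), an anti-proliferative cofactor of mRNA deadenylation, had 2867 and 1827 counts, or 167 and 163 TPM. The ranges of CDKN1A, GADD45A, PLK2 and BTG2 over the 2 libraries did not overlap each other, so the order of these genes was the same in each library. PLK3, the paralog of PLK2, was the lowest of the arrest genes with 1603 and 1162 counts, or 77.3 and 86.1 TPM. PLK2 exceeded it 2.21 ± 0.131-fold (SD, n = 2).

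Among the 4 genes of repair and nucleotide supply, the median was 48.1 TPM and each gene was above the median of detected protein-coding genes. RRM2B (ENSG00000048392), the p53-inducible subunit of ribonucleotide reductase that supplies nucleotides for repair, was the highest with 3674 and 2470 counts, or 109 and 113 TPM. With the length of the canonical transcript in place of all exons, DDB2 stood above it, at 80.4 against 75.6 TPM. DDB2 and XPC recognise damaged DNA in nucleotide excision repair. DDB2 had 1486 and 997 counts, or 49.2 and 50.8 TPM, and XPC had 1258 and 922 counts, or 46.3 ± 3.90 TPM (SD, n = 2). The means of DDB2 and XPC differ by less than the SD of XPC, although the library ranges do not overlap. This closeness holds for the length of all exons, and with the canonical length the means were 80.4 TPM for DDB2 and 35.4 TPM for XPC. POLH, the translesion DNA polymerase eta, was the lowest with 1675 and 1209 counts, or 32.1 and 35.6 TPM.

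The genes of metabolism, redox balance and mitochondria stood lowest, with a median of 16.9 TPM over 10 genes. With the length of all exons they fell into separate ranges. FDXR, the ferredoxin reductase of mitochondria, had 2264 and 1331 counts, or 96.1 ± 6.87 TPM (SD, n = 2). SESN2, a stress-responsive inhibitor of mTORC1, had 85.2 ± 4.34 TPM, and TP53I3, a quinone oxidoreductase, had 81.0 ± 2.85 TPM. The other 6 detected genes lay between 11.3 and 18.8 TPM. They were PRKAB1, a subunit of AMP-activated kinase, TP53INP1, a stress and autophagy protein, RRAD, a small GTPase, SESN1, TIGAR, which lowers glycolytic flux, and OSGIN1, an oxidative stress response gene. With the canonical length the gap between these ranges was narrower. TP53I3 then had 68.3 TPM, SESN2 had 51.3 TPM and PRKAB1 had 30.8 TPM. SESN1 (672 and 451 counts) and SESN2 (1772 and 1239 counts) encode related proteins with like functions, and the TPM of SESN2 was 5.66 ± 0.164 times that of SESN1 (SD, n = 2). OSGIN1 was the lowest detected gene of the list with 408 and 242 counts, or 11.8 and 10.7 TPM, but with the canonical length it had 19.6 TPM and TIGAR, at 8.12 TPM, was the lowest.

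SPATA18 (ENSG00000163071, chr4:52051304-52097299, plus strand) encodes a protein of mitochondrial quality control. It had 0 counts in both libraries. A count of 0 allows up to 3 counts, or up to 0.0967 TPM in library 1 and 0.149 TPM in library 2. SPATA18 transcripts were thus not detectable at this depth, and it was the 1 gene of the list below the count minimum. Its full-site match, shown above, lies 662 bases downstream of its start.

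The feedback group acts back on p53 and had a median of 41.6 TPM over 6 genes. CCNG1, which encodes cyclin G1 and recruits a phosphatase to MDM2, was the highest with 2781 and 1741 counts, or 144 and 139 TPM. MDM2 (ENSG00000135679, chr12:68808177-68845544, plus strand), the ubiquitin ligase of p53, had 2814 and 1902 counts. Its level was 54.4 and 56.5 TPM, with a mean of 55.4 ± 1.50 TPM (SD, n = 2), so it was about as high in each library. PPM1D, the phosphatase WIP1 that removes activating phosphates from p53 and ATM, had 48.4 ± 3.22 TPM, and its range lay below that of MDM2 with the length of all exons, but above it with the canonical length, at means of 57.6 TPM for PPM1D against 37.0 TPM for MDM2. FBXO22, a subunit of a ubiquitin ligase, had 34.7 ± 2.25 TPM, and ZMAT3, an RNA-binding protein, had 20.1 ± 1.59 TPM. CDKN2AIP, which binds p53 and p14ARF, was the lowest with 394 and 248 counts, or 15.7 and 15.2 TPM, below the median of detected protein-coding genes.

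The 11 genes of survival, death and stress signalling ranged from 14.0 to 628 TPM, with a median of 28.4 TPM. With the canonical length the median was that of BLCAP, at 48.4 TPM, so the place of this group relative to the feedback group depends on the length used. IER3 (ENSG00000137331, chr6:30743199-30744548, minus strand), a short immediate-early gene that affects survival, had 5309 and 3426 counts, or 631 and 626 TPM, and ranked next to CDKN1A among the 36 genes. IER5, PHLDA3 and TRIAP1 followed with 161 ± 9.33, 154 ± 9.08 and 138 ± 5.64 TPM (SD, n = 2). IER5 is an immediate-early regulator of heat shock transcription, PHLDA3 restrains AKT, and TRIAP1 is a small mitochondrial protein that opposes apoptosis. AEN, a nuclease active in apoptosis, had 77.0 ± 4.20 TPM. CDK5R1, an activator of CDK5, and SUSD6 had 28.4 ± 1.04 and 23.6 ± 1.18 TPM. GDF15, a secreted stress cytokine, had only 316 and 170 counts, or 24.3 and 20.1 TPM. BLCAP had 20.6 ± 0.823 TPM, and CYFIP2, a component of the actin-regulating WAVE complex, and TSC22D1 were the lowest. TSC22D1 had 706 and 492 counts, or 13.5 and 14.5 TPM.

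Along the order of all 36 genes, 15 of the 35 pairs of neighbours had ranges that did not overlap. The other 20 pairs are neighbours that the 2 libraries do not separate, such as SESN2 and PLK3, or CDKN2AIP and SESN1. The order also depends on the length used. With the length of the canonical transcript in place of all annotated exons, 14 of the 36 genes moved by more than 1.5 times, 10 to lower and 4 to higher levels, and BLCAP moved the most, by 2.35 times to 48.4 TPM. The total that TPM is scaled to changes with the lengths too, so a gene of unchanged length also moves. IER5, with 4201 bases by either length, went to 0.602 times its level, and SESN2, with 3462 bases by either length, to 0.603 times. A lower level is therefore not by itself an effect of the gene's own length. IER3 then stood at 413 TPM, BTG2 at 100.5 TPM and CDKN1A at 595 TPM. The first 4 genes, CDKN1A, IER3, GADD45A and PLK2, kept their order, and SESN2 was then 4.41 times SESN1.

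Levels in the 2 libraries were compared after the counts were divided by size factors, the median over genes of the ratio to the geometric mean. The libraries are replicates of 1 group, so a gap between them compares libraries and not conditions. None of the 35 detected p53 target genes was over 1.5-fold apart, where 9.28% of all 17207 detected genes were. Low counts make gaps wider, and among 11205 genes that reached 97 counts in each library, the lowest count of a detected p53 target, 0.651% were over 1.5-fold apart. The widest gap was that of GDF15, at 1.27-fold, with a 95% counting interval from 1.05 to 1.54 (exact Clopper-Pearson). RRAD followed at 1.26-fold with an interval from 0.977 to 1.63, which includes 1. For 12 of the 35 genes the interval did not include 1, a share near the 38.5% found among genes of at least 97 counts and the 30.2% among all detected genes. With these size factors the first library was higher in 11 of these 12, among them CDKN1A at 1.04-fold and FDXR at 1.17-fold. In CYFIP2 the second was higher. The direction depends on the scaling. Scaling to the library totals moves every ratio toward the second library, and the excess of genes higher in the first is then not kept. For CDKN1A the TPM, which are scaled to a different total, were 692 and 703 and thus higher in the second library. Of all genes with at least 97 counts and an interval clear of 1, 61.1% were higher in the first library with the same size factors. The log2 ratio of the 35 genes had an SD of 0.13, against 0.19 over genes of at least 97 counts. These intervals cover counting error only, since reads without molecular identifiers are not independent molecules.

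**Figure D3:**
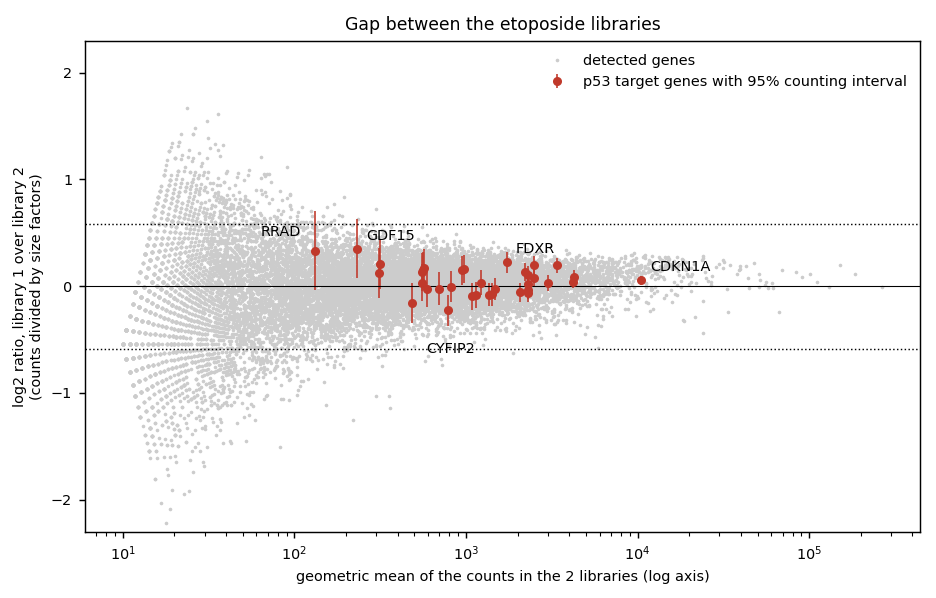
Log2 ratio of scaled counts, etoposide library 1 over library 2 (y axis), against the geometric mean of the counts (x axis, log scale) for 17207 detected genes (grey) and the 35 detected p53 target genes (red, bars give the 95% counting interval). All red points lie between the dotted lines at 1.5-fold, and GDF15 and RRAD, at low counts, lie farthest above 0.

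Features that the list did not use were compared with those of detected protein-coding genes, without a test. The genes lie on 16 chromosomes, with 6 of them on chromosome 1. Their median span was 18710 bases and their median canonical transcript had 6 exons, where detected protein-coding genes had medians of 33954 bases and 9 exons. The promoter from 250 bases before to 50 after the canonical start had a median GC content of 69.0%, against 66.3% for detected protein-coding genes. In this stretch GGGCGG was found on either strand in 30 of the 36 genes (83.3%), against 73.8% of detected protein-coding genes. CCAAT was found in 14 (38.9% against 35.2%) and TATAAA in 3, CDKN2AIP, GDF15 and TSC22D1 (8.33% against 5.52%). The 12 genes with a p53 full-site match had a median level of 94.1 TPM and ranged from 0 to 697 TPM, and the 24 without one had a median of 31.1 TPM and ranged from 11.3 to 628 TPM. These ranges overlap widely, and no test was made.

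Exons of other genes overlapped those of 17 of the 36 genes, and those of 7091 of the 13715 detected protein-coding genes. The overlap was over 20% of the exon bases for 2 of the 36, IER3 (38.9%) and XPC (24.6%), each with genes on the opposite strand. It was over 20% for 1580 of the 13715 detected protein-coding genes. The strand setting of the counting is not given in the sources used here, so whether the overlap added or removed counts was not tested.

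Of a further list of 14 p53 targets from the apoptosis arm, which includes the decoy receptor genes TNFRSF10C and TNFRSF10D, 11 were detected, with a median of 32.4 TPM. PMAIP1, which encodes NOXA, had 224 ± 1.40 TPM, BAX had 141 ± 6.02 TPM and the death receptor gene TNFRSF10B had 64.3 ± 5.48 TPM (SD, n = 2). BBC3, which encodes PUMA, had 60.5 ± 5.75 TPM. Levels of this list were computed with the length of all exons only. For BAX that length is 2587 bases, against 795 for the canonical transcript, so its place relative to PMAIP1 may depend on the length used. TNFRSF10A had 0 counts in both libraries, and TNFRSF10D (7 and 2 counts) and TP53AIP1 (2 and 3 counts) were also not detected. The median of the 36 genes was higher than that of this list, and the lists overlapped over most of their range.

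**Figure D4:**
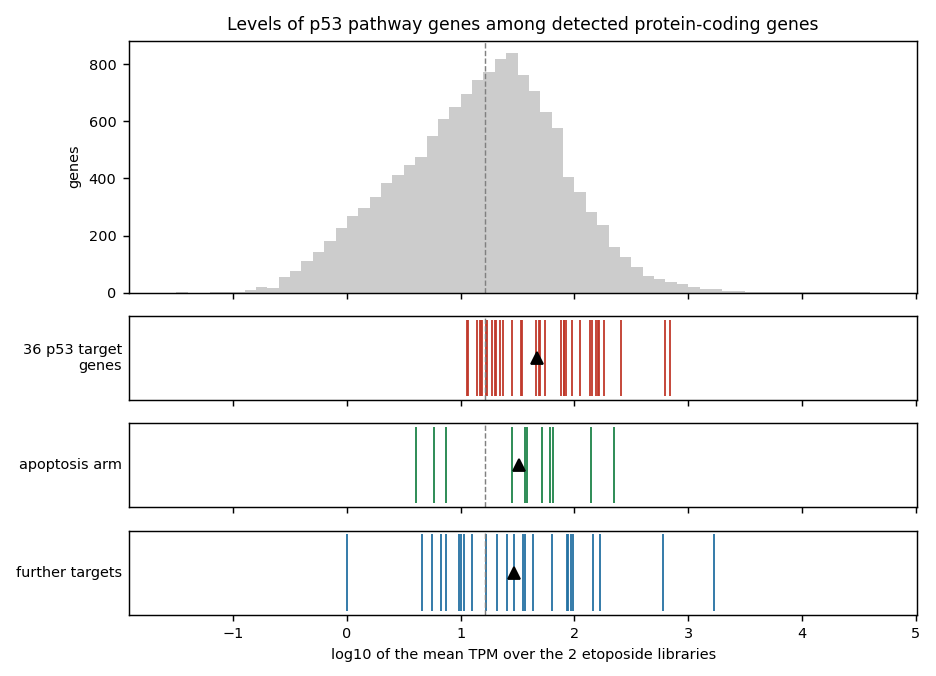
Histogram of log10 mean TPM over the 2 etoposide libraries for 13715 detected protein-coding genes (top, y axis in genes), with each detected gene of 3 p53 target lists as a vertical line below, the list's median over all its genes as a triangle and the median of detected protein-coding genes as a dashed line. The triangles stand at 47.4 TPM for the 36 p53 target genes, 32.4 TPM for the apoptosis arm and 29.2 TPM for the further targets, all right of the dashed line at 16.5 TPM.

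The identity of the cells was checked with marker genes. The labels give the tissue as bone and the cell type as epithelial. Of 10 mesenchymal and bone markers 6 were detected, with COL1A1 at 1368 ± 63.9 TPM, SPARC at 849 ± 8.88 TPM and VIM at 551 ± 24.7 TPM (SD, n = 2). FN1 had 114 ± 19.5 TPM. ALPL and RUNX2 had 11.2 ± 0.519 and 2.03 ± 0.0701 TPM, below the median of detected protein-coding genes. COL1A2, IBSP, BGLAP and SP7 had under 10 counts in each library. Of 8 epithelial markers 6 were detected. KRT8 and KRT18 had 451 ± 25.9 and 252 ± 9.61 TPM, and CLDN4 and EPCAM had 19.8 ± 1.64 and 18.2 ± 1.55 TPM. The epithelial cadherin CDH1 had 30 and 20 counts, KRT5 had 17 and 21 counts, and KRT19 and ESRP1 had at most 1 count. None of 4 blood markers was detected, and of 3 endothelial markers PECAM1 (22 and 14 counts) and VWF (29 and 16 counts) passed the count minimum and CDH5 (4 and 6 counts) did not.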

How the data were processed

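RNA-Seq of U2OS cells was analysed for 36 p53 target genes in 2 etoposide libraries. Per the labels and the methods, poly-A RNA was sequenced in pairs of reads, aligned to GRCh38 with HISAT2 2.1.0 and counted per Ensembl gene with featureCounts of Subread 2.0.0, and the authors deposited raw counts without normalization (DESeq2 1.30.1 was used for their tests). The control and adriamycin files, of which 292, 280, 220 and 221 genes were analysed, were used only to look up the 36 genes. Group means printed by the study were not used.

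The genes, their grouping and the further lists were chosen with earlier results of these data known. All 36 genes are named. Counts in each library are given for the highest and lowest of each functional group and for other genes the text turns on. Of the further lists, the 3 highest and the undetected genes are named, except for items not reported here, and a few others were added after their values were seen. Symbols were taken from GENCODE release 44, which had models for 60357 of 67140 identifiers. Identifiers without a model held 0.0411% and 0.0445% of counts and were left out of TPM. TPM used the union of annotated exons. Size factors were medians of ratios (1.21 and 0.828). TMM factors were computed with edgeR 4.0.16 (R 4.3.3) and the rest with Python 3.11.15, numpy 2.4.6, pandas 2.3.3 and scipy 1.17.1. The interval and motif procedures were tested on simulated data. No group was compared and no p-value was computed. Alternatives covered gene length, mitochondrial genes, scaling, count minimum, fold, each library alone and the motif settings.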

Additional observations from a re-analysis of the deposited data

How the results depend on the processing

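The median level of the 36 genes was 47.4 TPM and moved to 42.7 TPM with canonical transcript lengths and to 59.6 TPM without mitochondrial genes in the total. With either library left out it ranged from 44.8 to 49.9 TPM. Of the 36 single levels, 32 moved by more than their SD with canonical lengths and 35 without mitochondrial genes. Leaving out mitochondrial genes rescales all other genes of a library by the same factor. It therefore cannot change their order within a library, and the 35 moves reflect that rescaling only. Canonical lengths also change the total, so part of each move is shared by all genes. A single library cannot lie farther than 1 SD from the mean of 2, so leaving one out says nothing about stability here. The number of detected genes was 35 under each alternative run. No gene was over 1.5-fold apart between the libraries under TMM or total-count scaling or with at least 1 count, nor with a limit of 2-fold, and 2, GDF15 and RRAD, passed the lowest limit tried, as did 22.9% of all detected genes. The count of genes with a gap beyond counting error was 12 under TMM and total-count scaling too, but the genes behind it differed under total-count scaling. The total-count factors were 1.23 and 0.815, which moves every ratio toward the second library. Intervals close to 1 then change side. That of CDKN1A comes to include 1, and that of PLK3 no longer does. The equal count therefore does not show that the same genes were found. The full-site match was found near 12 genes, and near 6 with at most 1 mismatch (0.518% of protein-coding genes), 6 within 1000 bases (1.37%), 25 with a spacer of 0 to 13 bases, where 39.5% of protein-coding genes also had one, and 12 from the outermost gene start. No paired analysis was possible because the genes were analysed in 1 group. Depth limits the precision of GDF15 and RRAD, which had the fewest counts of the detected genes.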

Other observations

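A further list of 25 p53 targets was detected in full and had a median of 29.2 TPM. SFN, which encodes the cell-cycle inhibitor 14-3-3 sigma, had 14842 and 8302 counts, or 1693 ± 180 TPM (SD, n = 2), above CDKN1A. SERTAD1 had 167 ± 1.38 TPM. Among regulators of the pathway, the kinase gene ATM had 7.14 ± 0.780 TPM, the MDM2 relative MDM4 had 16.7 ± 1.44 TPM and USP7, a protease that stabilises MDM2, had 76.0 ± 1.05 TPM. These levels use the length of all exons, which for ATM is 39184 bases against 12915 for the canonical transcript. For MDM4 the lengths are 11008 and 10050 bases, so the order of ATM and MDM4 may depend on the length used.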
